A study of Mus musculus with 6 samples.

Results

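The genes described here encode GTPases that cells make in response to interferon gamma, and they were followed in CD8 T cells sorted from mouse pancreas. The list holds 10 genes: the guanylate-binding proteins Gbp2, Gbp3, Gbp4, Gbp5, Gbp6 and Gbp7, and the immunity-related GTPases Igtp, Iigp1, Irgm1 and Irgm2. A gene was measured where the array annotation gave it a probe of its own, with the brightest probe kept, and each of the measured genes had a single such probe. This left 6 of the 10 (Gbp3, Gbp4, Gbp5, Gbp7, Iigp1 and Irgm1) among 19929 measured genes in all. Gbp2, Gbp6, Igtp and Irgm2 appeared only on probes annotated to several genes, so no level is given for any of these 4.

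Both groups were of the C57BL/6.H2g7/g7 background and carried the AI4 transgenes, which encode an antigen receptor for a beta cell antigen. The AI4 mice developed T1D (type 1 diabetes), and the Rip-B7xAI4 mice, which additionally express the inhibitory ligand B7x from the rat insulin promoter and hence on beta cells, were resistant to it. Genotype and disease state go together in this design and cannot be told apart, and no age of the mice is stated. There were 3 arrays per group, labelled as biological replicates and each from pooled pancreata, and the cells had been sorted with a CD8 antibody and the MimA2/H-2Db tetramer; how many mice made a pool is not stated either.

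Interferon gamma binds its receptor, made of Ifngr1 and Ifngr2, acts through the kinases Jak1 and Jak2, and induces the transcription factor Irf1. The GTPases are among the most strongly induced targets of this pathway in many cell types, macrophages included. Guanylate-binding proteins coat intracellular pathogens and the vacuoles that hold them, whereas immunity-related GTPases act on such vacuoles directly (Iigp1) or restrain their relatives on the cell's own membranes (Irgm1, Irgm2 and Igtp). In T cells, Irgm1 is known for protecting activated cells from death driven by interferon gamma.

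Interferons reach these genes through short promoter sequences, which are shown here for the listed genes with a promoter window among those searched. Irf factors and the interferon-stimulated factor bind around GAAANNGAAA, which reads TTTCNNTTTC on the other strand, and TTCNNNGAA is the form of the gamma-activated sequence. Both were searched on both strands of the 250 bases before each annotated start in RefSeq (GRCm38.p6). The chromosome of Iigp1 and Gm4951 was left out of the search for the listed genes and their relatives. On the other chromosomes 7 of the 10 genes had a window, 8 windows in all. Capitals mark GAAANNGAAA and TTCNNNGAA matches that lie wholly within the stretch shown, which is the match nearest the start site with up to 30 bases on either side, ending where the annotated gene begins.
Gbp5: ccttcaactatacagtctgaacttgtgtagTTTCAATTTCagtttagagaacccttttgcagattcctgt
Gbp7: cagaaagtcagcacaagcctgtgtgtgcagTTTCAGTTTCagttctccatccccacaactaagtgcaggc
Gbp3: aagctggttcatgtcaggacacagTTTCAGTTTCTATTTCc
Gbp2: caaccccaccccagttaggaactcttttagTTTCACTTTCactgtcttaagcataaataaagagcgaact
Irgm1: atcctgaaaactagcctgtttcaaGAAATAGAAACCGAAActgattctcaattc
Igtp: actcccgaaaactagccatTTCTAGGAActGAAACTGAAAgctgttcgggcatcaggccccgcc
Irgm2: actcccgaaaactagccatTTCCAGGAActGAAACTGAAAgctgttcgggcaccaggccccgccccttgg

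These stretches lie at chr3:142496739-142496808 (Gbp5), chr3:142530253-142530322 (Gbp7), chr3:142559975-142560015 (Gbp3) and chr3:142620574-142620643 (Gbp2) on the plus strand. The others lie at chr11:48871421-48871474 on the minus strand (Irgm1) and at chr11:58199492-58199555 (Igtp) and chr11:58214883-58214952 (Irgm2) on the plus strand. GAAANNGAAA was found for all 7 genes, in 7 of their 8 windows, against 2.98% of 32851 windows of the same length over all genes in the table. The window without it belongs to another start site of Gbp3. TTCNNNGAA was found for 4 genes (Gbp5, Gbp7, Igtp and Irgm2), against 7.02% of all windows. Windows of related GTPases outside the list, the chromosome of Iigp1 and Gm4951 again left out, held GAAANNGAAA in 5 of 8 cases and TTCNNNGAA in 4 of 8. The 2 motifs did not overlap in any of these windows. Gbp3 and Irgm1 each held 2 overlapping copies of GAAANNGAAA, which appear as the longer runs of capitals. In Igtp and Irgm2 both motifs stood in the same spacing, which the windows of the relatives Tgtp1, Tgtp2 and Gm12185 shared. The windows of Igtp and Irgm2 matched at 194 of 215 aligned bases. A match describes the letters only, and binding was not measured.

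The sorted cells carried the RNA of CD8 T cells on every array. Cd8a lay between 10.10 and 10.89 log2 in AI4 and between 9.21 and 10.42 in Rip-B7xAI4, and Cd3e between 9.11 and 10.59 and between 10.65 and 11.19. The Rip-B7xAI4 arrays were not alike in their content of other cells' RNA. The mean of 20 measured markers of myeloid cells (of 22 listed) lay between 6.09 and 6.67 in AI4, and reached 8.78 and 8.75 in replicates 1 and 3 of Rip-B7xAI4 but 6.22 in replicate 2. Of these markers 19 of 20 had a positive difference and 0 passed. Csf1r, the receptor that defines macrophages and monocytes, was 7.11, 5.49 and 8.81 in replicates 1, 2 and 3 of Rip-B7xAI4 and between 5.77 and 6.09 in AI4. Groups did not overlap for 2 of the 20, Cd68 and Fcer1g, against 5.99% of tested genes that separated upward. In replicate 2 Cd68 stood at 7.35 and Fcer1g at 6.67, against 6.21 to 6.49 and 5.58 to 6.21 in AI4. Neutrophil markers followed the same order (8.56, 5.86 and 7.91 against 5.61 to 5.78). S100a8 and S100a9, 2 of the 6 tested, did not overlap between the groups. In replicate 2 S100a8 stood at 6.01 and S100a9 at 7.68, against 4.71 to 5.24 and 6.19 to 7.29 in AI4. The mean of the dendritic cell markers was 6.86 in Rip-B7xAI4 replicate 3 and 5.38 to 5.61 on the other arrays. Itgax, which is on that list, did not follow its mean and lay at 7.29, 6.73 and 7.10 in Rip-B7xAI4 replicates 1 to 3 and between 5.29 and 5.86 in AI4. The mean of 4 measured NK cell markers (of 5 listed) was higher on every Rip-B7xAI4 array, replicate 2 included, at 5.79 to 6.07 against 5.17 to 5.27. Of these, Klrb1c did not overlap between the groups (5.37 to 6.18 against 4.57 to 4.75), and the other 3 did. Such an upward separation held for 4.62% of all 19929 measured genes. In Rip-B7xAI4 replicate 2 Eomes stood at 8.88, against 6.56 to 7.44 in AI4. Ncr1 was at 4.42 there (4.56 to 4.87 in AI4) and Klra8 at 4.48 (4.42 to 4.91), so neither lay above AI4. Klrb1c, Ncr1 and Klra8 were among the dim genes left out of the test described below. The single erythroid marker measured was at 9.92 in replicate 3 of Rip-B7xAI4 and between 6.25 and 7.15 elsewhere. No marker was listed at 0 on this log2 scale. Several results below are also given without Rip-B7xAI4 replicates 1 and 3. In such bulk samples fewer cells of a type and less RNA per cell cannot be told apart.

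None of the measured GTPase genes passed the test between the groups. Differences are Rip-B7xAI4 minus AI4 on the log2 scale, from a limma fit over 13950 tested genes with Benjamini-Hochberg adjustment and a limit of 0.05. Gbp5 was too dim to be tested, since genes in the dimmest 30% by mean signal were left out. Of the 5 tested, 0 passed, where 1 gene passed in all (0.00717% of those tested), and 0 had an unadjusted p under 0.05, against 8.73% of all tested genes (5.56% higher and 3.17% lower in Rip-B7xAI4). The count over all genes ranged from 0 to 22 when 1 array was left out, being 2 when AI4 replicate 1 was absent, 22 when Rip-B7xAI4 replicate 2 was absent and 0 when any of the other arrays was. That of the 5 tested GTPases was 0 in each of these fits. All 6 measured genes had a positive difference, with a median of 0.50, against 6929 of all 19929 measured genes and a median of -0.11. The 5 tested genes alone had a median of 0.34, against 39% positive and a median of -0.10 over all tested genes. After quantile normalization Gbp4 turned negative, at -0.10. Leaving out AI4 replicate 1 raised the median of the 6 to 0.95, and leaving out Rip-B7xAI4 replicate 1 lowered it to 0.23. It was 0.12 when Rip-B7xAI4 replicates 1 and 3 were both left out.

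**Figure D1:**
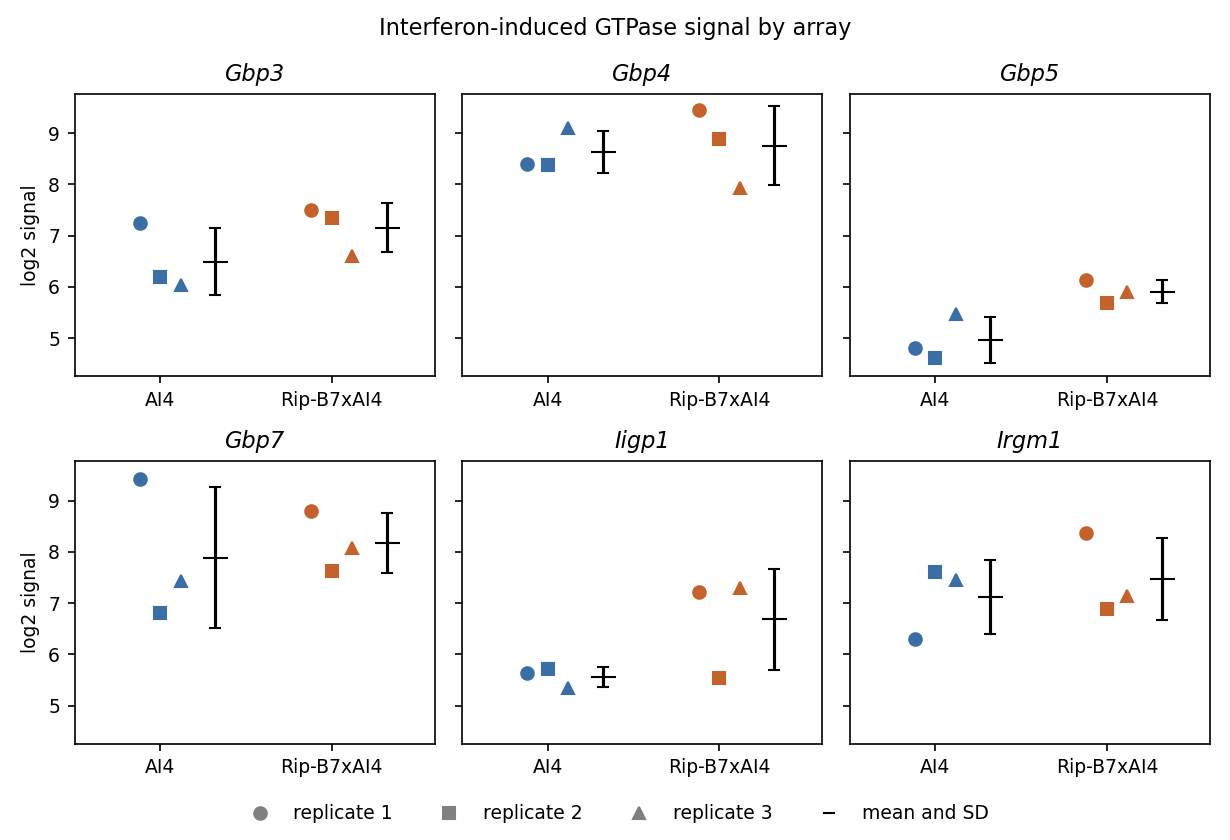
Log2 signal of the 6 measured GTPase genes (vertical axis, the same in every panel) in AI4 (blue) and Rip-B7xAI4 (orange), with 1 point per array, the replicate number as its shape, and the mean and SD of the 3 arrays in black. Only the Gbp5 points do not overlap between the groups, and Iigp1 is high in Rip-B7xAI4 replicates 1 and 3 but at the AI4 level in replicate 2.

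Among the guanylate-binding proteins, Gbp5, which promotes inflammasome assembly, had the clearest separation. In AI4 replicates 1, 2 and 3 Gbp5 stood at 4.81, 4.61 and 5.48 log2, and in Rip-B7xAI4 replicates 1, 2 and 3 at 6.13, 5.68 and 5.90. All Rip-B7xAI4 arrays thus lay above all AI4 arrays, which held for 4.62% of all 19929 measured genes. The mean of Gbp5 was 4.96 ± 0.45 for AI4 and 5.90 ± 0.23 for Rip-B7xAI4 (SD, n = 3 each), which gave a difference of 0.94. When the dim genes were tested as well, limma gave 0.94 ± 0.26 (SE) with an unadjusted p of 0.00933 and an adjusted p of 0.518. Its AI4 values lay below the medians of their arrays, which were between 6.05 and 6.10. The values in Rip-B7xAI4 replicates 2 and 3 were also below their array medians of 6.01 and 6.08. The distance of such a dim probe from background is unknown, because none was measured, and no fold is given.

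Gbp3, a guanylate-binding protein of the same gene cluster, stood at 7.24, 6.19 and 6.04 in AI4 and at 7.50, 7.35 and 6.61 in Rip-B7xAI4, each in the order of replicates 1, 2 and 3. AI4 replicate 1 reached into the Rip-B7xAI4 range, while the other AI4 arrays lay below it. The difference was 0.66 ± 0.39 (SE), with a 95% interval of -0.27 to 1.59 and an adjusted p of 0.589 by limma. Without AI4 replicate 1 it was 1.04 and did not pass.

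Gbp7, which helps deliver the oxidase that kills ingested microbes, spread most widely within a group. It stood at 9.43, 6.81 and 7.43 in AI4 and at 8.80, 7.63 and 8.08 in Rip-B7xAI4. The highest of the 6 values was that of AI4 replicate 1, and the AI4 range enclosed the Rip-B7xAI4 range whole. The difference was 0.28 ± 0.68 (SE; interval -1.34 to 1.90; limma adjusted p = 0.859), and it was 1.05 without AI4 replicate 1 and -0.26 without AI4 replicate 2.

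Gbp4, a guanylate-binding protein of a separate gene cluster, was nearly level between the groups. It stood at 8.41, 8.37 and 9.10 in AI4 and at 9.44, 8.89 and 7.92 in Rip-B7xAI4. Both the highest and the lowest array were from Rip-B7xAI4. The difference was 0.13 ± 0.42 (SE; interval -0.86 to 1.12; limma adjusted p = 0.899).

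Of the immunity-related GTPases, Iigp1, the effector that attacks parasite vacuoles, had the largest difference of the tested genes on the list, and it rested on a pair of arrays. Iigp1 stood at 5.64, 5.71 and 5.35 in AI4 and at 7.21, 5.54 and 7.29 in Rip-B7xAI4. Rip-B7xAI4 replicates 1 and 3, the arrays high in myeloid markers, lay above every AI4 array, and replicate 2 lay within the AI4 range. The difference was 1.12 ± 0.47 (SE; interval -0.01 to 2.24), with an unadjusted p of 0.0515 and an adjusted p of 0.566 by limma. Without Rip-B7xAI4 replicates 1 and 3 it was -0.03 ± 0.28 (SE), a fit in which the lone Rip-B7xAI4 array takes its spread from AI4. Adding the mean of the myeloid markers to the model gave 0.16 ± 0.31 (SE). Without Rip-B7xAI4 replicate 2 it was 1.69 ± 0.22 (SE), with an adjusted p of 0.0846. The AI4 values of Iigp1, like those of Gbp5, lay below the medians of their arrays.

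Irgm1, the regulator named above for its role in activated T cells, stood at 6.30, 7.62 and 7.45 in AI4 and at 8.37, 6.89 and 7.13 in Rip-B7xAI4. Rip-B7xAI4 replicate 1 was the highest array and AI4 replicate 1 the lowest, and between them AI4 replicates 2 and 3 lay above Rip-B7xAI4 replicates 2 and 3. The difference was 0.34 ± 0.50 (SE; interval -0.85 to 1.53; limma adjusted p = 0.761). Leaving out either of those extreme arrays turned it, to -0.11 without the highest and -0.07 without the lowest.

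The 6 genes did not move as a block across arrays. Rip-B7xAI4 replicate 1 was the highest array for 4 of them (Gbp3, Gbp4, Gbp5 and Irgm1), AI4 replicate 1 for Gbp7 and Rip-B7xAI4 replicate 3 for Iigp1. In Rip-B7xAI4 replicate 1, 5 of the 6 stood above the highest AI4 array, against 2 in replicate 2 and 2 in replicate 3. Measured from the AI4 mean of each gene, the median of the 6 was 1.09 in Rip-B7xAI4 replicate 1, 0.12 in replicate 2 and 0.15 in replicate 3. It was -0.04, -0.28 and 0.06 in AI4 replicates 1, 2 and 3. Myeloid markers were high in Rip-B7xAI4 replicates 1 and 3 alike, and among the 6 genes only Iigp1 stood above the highest AI4 array in both of these and not in replicate 2. The part of myeloid cells in the values of these 6 genes was not tested.

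Among the pathway genes the ligand had the largest difference, although it did not pass. Ifng, interferon gamma itself, stood at 6.76, 5.38 and 5.14 in AI4 and at 9.47, 9.73 and 8.49 in Rip-B7xAI4. Every Rip-B7xAI4 array lay above every AI4 array, and replicate 2, with the lowest myeloid marker mean of its group, was the highest. Separation in this direction held for 5.99% of tested genes. The NK cell marker mean was likewise higher on all 3 Rip-B7xAI4 arrays. In replicate 2 this mean rested on Eomes (8.88) and Klrb1c (5.37), and Ncr1 and Klra8 did not lie above AI4. The part of NK cells in the Ifng values was not tested. The difference was 3.47 ± 0.51 (SE; interval 2.27 to 4.68), with an adjusted p of 0.157 by limma, and it was 3.97 without Rip-B7xAI4 replicates 1 and 3. On that array with the most Ifng RNA, Iigp1 and Irgm1 lay within the AI4 range, Gbp4 and Gbp7 did too, and Gbp3 and Gbp5 lay above the highest AI4 array. The interval of Ifng lay above those of Gbp3, Gbp4, Gbp7, Iigp1 and Irgm1 without touching any of them; a test of the difference between genes was not run.

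**Figure D2:**
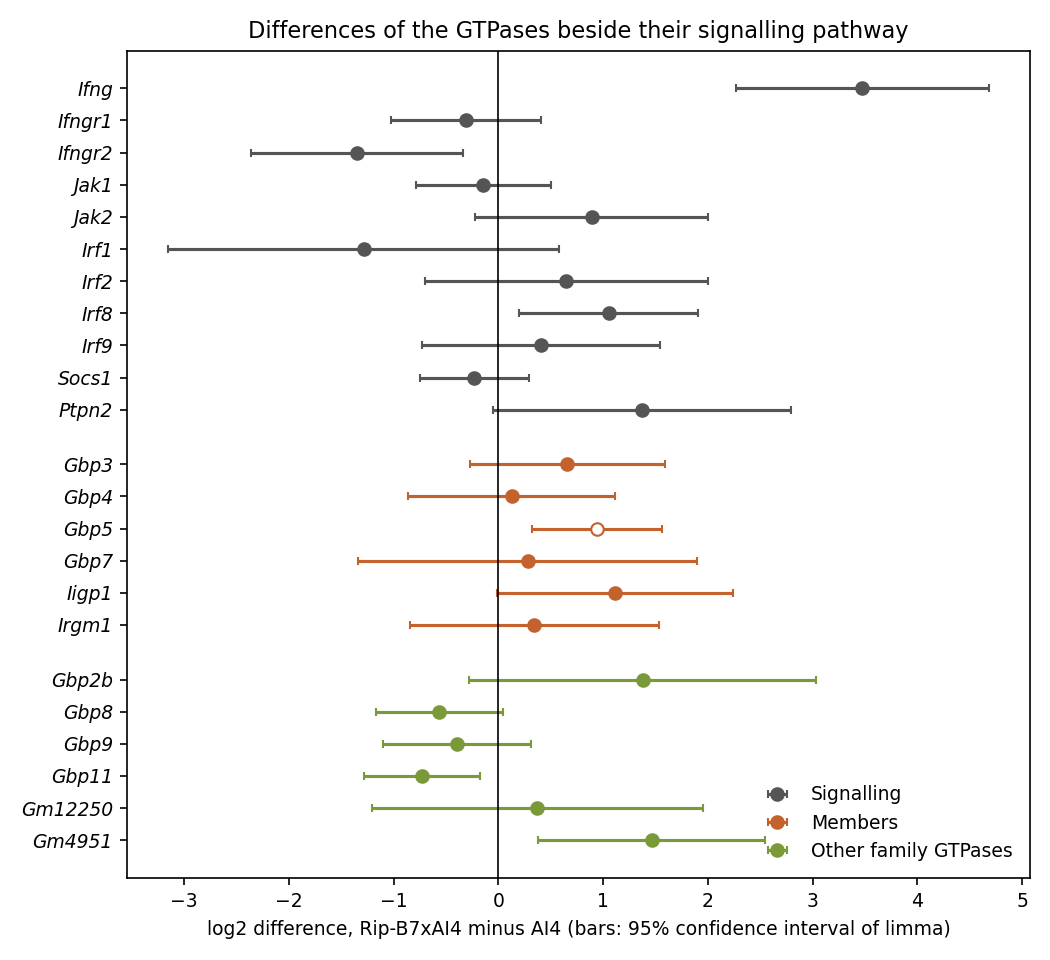
Log2 difference between Rip-B7xAI4 and AI4 (horizontal axis) for genes of interferon gamma signalling (grey), the 6 GTPase genes on the list (orange) and related GTPases (green), with 95% confidence intervals of limma that are not adjusted for the number of genes. The open circle is Gbp5, which was too dim for the main test and is shown from the fit of all genes. Ifng stands at 3.47, and the listed GTPases lie between 0.13 and 1.12.

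The receptor and signalling genes between ligand and targets showed no common direction. Of the 15 fixed for this pathway 14 were measured and tested, 0 passed, 7 had a positive and 7 a negative difference, and the median was -0.01. Ifngr2, the signalling chain of the receptor, stood at 7.16, 8.05 and 8.76 in AI4 and at 6.91, 6.18 and 6.83 in Rip-B7xAI4. Its groups did not overlap, and Ifngr2 differed by -1.35 ± 0.42 (SE; limma adjusted p = 0.496), a separation in that direction seen in 11.9% of tested genes. Ifngr1, the ligand-binding chain, differed by -0.31 ± 0.30 (SE), Jak1 by -0.14 ± 0.27 and Jak2 by 0.89 ± 0.47, all with overlapping groups.

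Irf1, a transcription factor that interferon gamma induces and whose family binds sequences of the GAAANNGAAA form, had a negative difference. It stood at 10.15, 7.99 and 7.70 in AI4 and at 8.58, 6.72 and 6.68 in Rip-B7xAI4. AI4 replicate 1 was the highest array, as it was for Gbp7, and Rip-B7xAI4 replicate 1 lay between it and the other AI4 arrays. The difference was -1.28 ± 0.78 (SE; interval -3.15 to 0.58; limma adjusted p = 0.590). It was -0.51 without AI4 replicate 1 and -0.49 with the mean of the gene's probes. Irf8, which is also a factor of myeloid and dendritic cells, stood at 6.67, 6.17 and 6.08 in AI4 and at 6.95, 7.01 and 8.12 in Rip-B7xAI4. Its groups did not overlap (1.05 ± 0.36 SE; limma adjusted p = 0.513), a separation seen upwards in 5.99% of tested genes. Irf2 and Irf9 differed by 0.65 ± 0.57 (SE) and 0.41 ± 0.48. Of the inhibitors, Socs1, which blocks the Jak kinases, differed by -0.23 ± 0.22 (SE), and the phosphatase Ptpn2 by 1.37 ± 0.60 (limma adjusted p = 0.566). The Ptpn2 difference was 0.86 without AI4 replicate 1 and 0.51 with the mean of its probes.

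Relatives of the listed GTPases split by array and by gene. Of 17 further family members named, 9 had a probe of their own and 8 were tested. None passed, 3 had a positive and 5 a negative difference, and the median was -0.34. Gbp2b stood between 5.08 and 5.58 in AI4 and at 8.09, 5.10 and 6.93 in the 3 Rip-B7xAI4 arrays, in replicate order. Gm4951, an immunity-related GTPase, stood between 4.78 and 5.0 in AI4 and at 6.93, 5.23 and 6.85. Both were high in Rip-B7xAI4 replicates 1 and 3, as Iigp1 was. Gm4951 in replicate 2 also lay above every AI4 array, so its groups did not overlap, which held upwards for 5.99% of tested genes.

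Without these arrays Gbp2b differed by -0.23 and Gm4951 by 0.36, against 1.38 ± 0.70 (SE; limma adjusted p = 0.582) and 1.47 ± 0.45 (adjusted p = 0.493) with them. Gm4951 had an adjusted p of 0.0474 by limma without Rip-B7xAI4 replicate 2, and passed in no other fit (range 0.0474 to 0.953 over the alternatives that tested it). Close relatives of Gbp4 had negative differences, none of which passed. Gbp11 stood at 6.35, 7.0 and 6.83 in AI4 and at 6.13, 6.12 and 5.74 in Rip-B7xAI4, with no overlap and a difference of -0.73 ± 0.23 (SE; limma adjusted p = 0.505). Separation in that direction was seen in 11.9% of tested genes. Gbp8 and Gbp9 differed by -0.56 ± 0.25 (SE) and -0.40 ± 0.30, with overlapping groups. Gm12250 differed by 0.37 ± 0.66 (SE). The guanylate-binding proteins of this cluster are close in sequence, so that their probes may share signal, and values of Gbp4, Gbp8, Gbp9 and Gbp11 are uncertain for that reason.

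**Figure D3:**
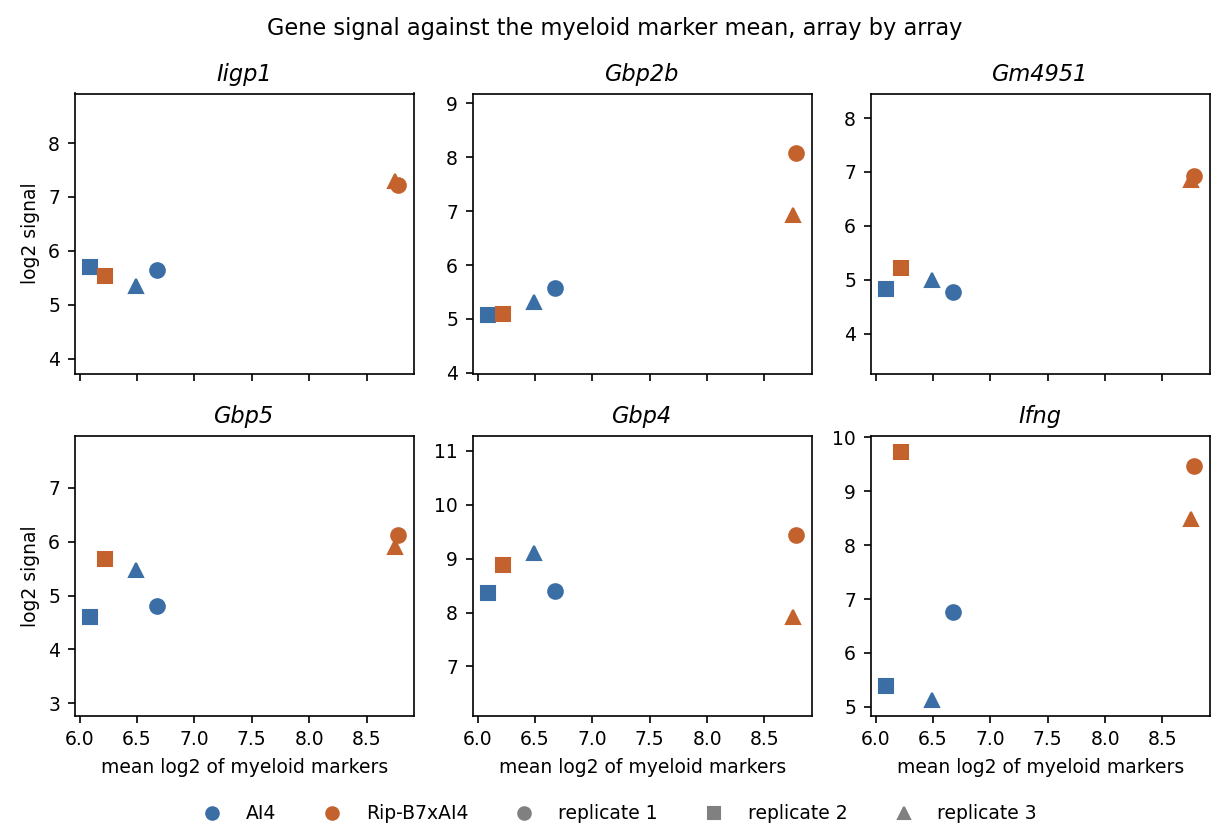
Log2 signal of 6 genes (vertical axis, each panel spanning the same number of log2 units) against the mean log2 signal of 20 myeloid markers (horizontal axis), with 1 point per array, AI4 in blue, Rip-B7xAI4 in orange and the replicate number as the shape. Iigp1, Gbp2b and Gm4951 are highest in the 2 arrays with a myeloid mean above 8.7, and Gm4951 in Rip-B7xAI4 replicate 2 also lies above every AI4 array. Ifng is high in all 3 Rip-B7xAI4 arrays, including replicate 2 at a myeloid mean of 6.22.

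The probes annotated to several genes cannot be assigned to any 1 of them and are given by their annotation only. The probe annotated to both Igtp and Irgm2 stood at 9.39, 8.02 and 8.50 in AI4 and at 8.59, 8.25 and 8.66 in Rip-B7xAI4. The groups overlapped, with a difference of -0.14 ± 0.36 (SE; interval -1.0 to 0.72). The probe annotated to Gbp2 and Gbp2b stood at 8.56, 7.21 and 6.28 in AI4 and at 9.20, 6.24 and 8.31 in Rip-B7xAI4 (difference 0.57 ± 0.87 SE, and -1.11 ± 0.93 without Rip-B7xAI4 replicates 1 and 3). It was lowest in Rip-B7xAI4 replicate 2 and highest in replicate 1. The probe annotated to Gbp6 and 5 other guanylate-binding proteins lay between 8.61 and 9.04 in AI4 and between 8.42 and 9.15 in Rip-B7xAI4 (difference -0.12 ± 0.25 SE). Of the 2 probes annotated to Tgtp1 and Tgtp2, effector GTPases of T cells and macrophages, 1 stood at 10.94, 10.59 and 10.21 in AI4 and at 10.07, 8.89 and 9.74 in Rip-B7xAI4. These groups did not overlap, as in 11.9% of tested genes in that direction, and the difference was -1.02 ± 0.35 (SE). The other stood at 11.49, 10.76 and 10.31 in AI4 and at 10.40, 9.05 and 9.96 in Rip-B7xAI4, where the groups overlapped, with a difference of -1.05 ± 0.44 (SE). A probe annotated to Gvin1 and Gm4070, of the very large interferon-inducible GTPases, separated the groups upward, as 5.99% of tested genes did. It lay between 7.12 and 7.80 in AI4 and between 7.99 and 8.64 in Rip-B7xAI4, with a difference of 0.94 ± 0.27 (SE). Another 2 probes annotated to Gvin1 with 4 further genes differed by 0.40 and 0.25, and 2 annotated to 9930111J21Rik1 and 9930111J21Rik2 by 0.77 and 0.71, all with overlapping groups. Over the 19827 probes tested in that fit, 1 passed and none of these 10 did (limma adjusted p between 0.509 and 0.879).

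Targets of interferon gamma other than GTPases were compared through a list of 29, of which 27 were measured and 25 tested. None passed by limma, 17 had a positive and 8 a negative difference, and the median was 0.16. An unadjusted p under 0.05 was reached by 5 of the 25 with a positive and 0 with a negative difference, against 5.56% and 3.17% of all tested genes. These were Casp1, Psmb9, Tap2, Xaf1 and Casp4, the last named after its values were seen. Casp1, the inflammasome protease, stood at 6.75, 4.84 and 5.82 in AI4 and at 8.67, 8.35 and 8.15 in Rip-B7xAI4. It was high in all 3 Rip-B7xAI4 arrays, replicate 2 included, with a difference of 2.59 ± 0.47 (SE; limma adjusted p = 0.206).

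Psmb9, a subunit of the immunoproteasome, stood at 10.54, 10.27 and 10.15 in AI4 and at 11.16, 11.35 and 11.40 in Rip-B7xAI4. It likewise separated the groups on every array, with a difference of 0.98 ± 0.18 (SE; limma adjusted p = 0.206). Upward separation was seen for 6 of the 25 tested targets on this list, against 5.99% of all tested genes. Tap2, of the peptide transporter, and Xaf1 differed by 0.52 ± 0.17 (SE) and 1.12 ± 0.38. Casp4, the receptor for bacterial lipopolysaccharide in the cytosol, was at 8.09 in Rip-B7xAI4 replicate 1 and at 6.12 and 6.47 in replicates 2 and 3, with a difference of 1.32 ± 0.49 (SE; limma adjusted p = 0.549), which was 0.55 without Rip-B7xAI4 replicates 1 and 3.

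The type I interferon response, which shares the GAAANNGAAA sequence, had 24 of 26 listed genes measured and 21 tested. None passed, 18 had a positive and 3 a negative difference, and the median was 0.26. Ifi27l2a stood between 6.78 and 7.71 in AI4 and at 9.09, 9.30 and 9.88 in Rip-B7xAI4 (2.31 ± 0.33 SE; limma adjusted p = 0.157). Its groups did not overlap, an upward separation seen in 2 of the 21 and in 5.99% of all tested genes. Ifih1, a sensor of viral RNA, differed by 1.00 ± 0.26 (SE), Ifit3 by 1.86 ± 0.66 and Irf7 by 0.51 ± 0.30. The list mean was 7.29 and 7.24 in Rip-B7xAI4 replicates 1 and 3, 6.58 in replicate 2 and between 6.38 and 6.79 in AI4. Without Rip-B7xAI4 replicates 1 and 3, 7 of the 21 tested genes had a positive difference and the median was -0.14, against -0.09 over all tested genes. Ifi27l2a then differed by 2.19, Ifit3 by 1.12, Ifih1 by 0.60 and Irf7 by 0.34.

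Proteins that work with the GTPases were listed as well, namely the conjugation system that loads them on the right membranes, the ubiquitin-like proteins it attaches, and inflammasome parts. All 15 were measured, 14 were tested, none passed, 12 differences were positive and 2 negative, and the median was 0.24. Pycard, the inflammasome adaptor, differed by 0.84 ± 0.27 (SE; limma adjusted p = 0.509) and did not overlap between the groups. Aim2, the sensor of cytosolic DNA, differed by -0.40 ± 0.18 (SE) and did not overlap either, in the opposite direction. Of the 14 tested, 2 separated upward and 1 downward, against 5.99% and 11.9% of all tested genes. Atg3, the enzyme that attaches ubiquitin-like proteins to lipid, differed by 0.63 ± 0.27 (SE), and Gabarapl1, one of those proteins, by 0.68 ± 0.37.

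Genes most like the mean array pattern of the 6 GTPases were named by distance. The measure was the root mean square distance over the 6 arrays between a gene's centred log2 values and the mean centred profile of the 6 GTPases, taken over 13198 tested genes. Zc3h4, a zinc finger protein of transcription, was nearest at 0.085 log2, followed by Arcn1 (0.096), a coat protein of transport vesicles, Zfand5 (0.098), Nucb1 (0.12) and Utp23 (0.12). Zc3h4 stood at 7.79, 7.26 and 7.78 in AI4 and at 8.71, 7.92 and 8.01 in Rip-B7xAI4. Its likeness to the GTPase mean follows from this choice and is no separate result. The 6 GTPases themselves did not move as a block, so likeness to their mean is not likeness to each.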

How the data were processed

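Total RNA of sorted cells was labelled with biotin and hybridised to 1-colour Affymetrix arrays, per the labels' protocols. The authors deposited 1 normalized log2 value per probe and array; Affymetrix Expression Console was used, per the submitters' processing notes, with version and summarisation not given in the sources used here, and the log2 scale was read from the range of the values. Of 28325 probes, 21760 carried 1 gene symbol, 1621 several and 4944 none. The brightest probe of each gene was kept. Genes in the dimmest 30% by mean signal stayed out of the test. Groups were fitted with limma 3.58.1 in R 4.3.3 without a block, two-sided, after the fit had been tested on simulated data. The 3 arrays per group set the precision. The p-values set a group difference against the spread between these arrays, which limma moderates over all tested genes. Each array came from pooled pancreata, so the spread between mice was not measured.

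The listed genes, the other gene lists and the rules for naming genes were chosen with earlier results of these data known. All listed GTPases are named, with their relatives and signalling genes where described, the 4 genes of smallest p in each other list, and the 5 nearest in array pattern.

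Alternatives were the replicate block, leaving out arrays, quantile normalization, median centring, other filters, the mean of probes, trend and robust eBayes, array weights and a myeloid covariate; testing every probe, and leaving out Rip-B7xAI4 replicates 1 and 3 for other lists and shared probes, were added after seeing the data.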

Additional observations from a re-analysis of the deposited data

How the results depend on the processing

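Gbp3, Gbp4, Gbp7, Iigp1 and Irgm1 passed in none of the 16 alternatives, nor when every probe was tested on its own. Gbp5 was tested only without the filter on dim genes among the 16, and Gbp2, Gbp6, Igtp and Irgm2 were in none of them. Of the 96 recomputed differences of the 6 measured genes 83 kept their direction, and the adjusted p, where there was one, lay between 0.0846 and 1.00 by limma. The count over all genes was 0 with the replicate block, 38 with array weights (35 higher and 3 lower), 0 with the myeloid covariate, 0 when Rip-B7xAI4 replicates 1 and 3 were both left out and 0 to 22 when 1 array was left out; fewer samples or residual degrees of freedom enter several of these fits, and otherwise the cause was not tested. Deviations of same-numbered arrays correlated at -0.08, 0.06 and -0.22 over tested genes. With 3 arrays per group this cannot show whether the replicate numbers pair the arrays. The replicate block moved no GTPase past the limit. With it the SE fell for Gbp3, Gbp5, Gbp7 and Iigp1 (from 0.68 to 0.35 for Gbp7) and rose for Gbp4 and Irgm1. For Irf1 the SE fell from 0.78 to 0.23, with an adjusted p of 0.355 by limma. The median difference of the 6 genes was 0.12 when both of these arrays were left out and 0.23 to 0.95 when 1 array was left out.

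Directions turned as follows, the cause not tested. Leaving out 1 array gave ranges of -0.11 to 0.63 for Irgm1, -0.22 to 0.54 for Gbp4, -0.26 to 1.05 for Gbp7, -0.047 to 1.07 for Irf2, -0.28 to 0.078 for Jak1 and -0.16 to 1.01 for Gm12250. Quantile normalization gave -0.10 for Gbp4. Array weights gave -0.27 for Irgm1 and -0.68 for Gm12250. Without Rip-B7xAI4 replicates 1 and 3 the values were -0.26 for Gbp7, -0.027 for Iigp1, -0.23 for Irgm1, 0.022 for Ifngr1, -0.23 for Gbp2b and -0.35 for Gm12250. In the same setting, applied to lists and shared probes after seeing the data, the medians were 0.13 for the signalling genes and -0.14 for the type I response, and the probes annotated to Gbp2 and Gbp2b and to Gvin1 with 4 further genes gave -1.11, -0.048 and -0.14. With the myeloid covariate they were -0.42 for Gbp7, -0.034 for Irgm1, -0.037 for Gbp2b and -0.036 for Gm12250. Array weights moved Ifng, Casp1 and Ifi27l2a past the limit (adjusted p = 0.0393, 0.0462 and 0.0393 by limma; over all alternatives 0.0393 to 0.763, 0.0462 to 0.953 and 0.0393 to 0.813). No member had a further probe of its own to test, and no pseudocount applied to log2 values.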
